A study of Oryza sativa with 4 samples.

Results

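Regular nucleosome arrays of the WT rice genome were described, and the positions of the nucleosomes in the *oschz1-1* mutant were compared with them. An array was a run of at least 8 consecutive WT nucleosome summits on chromosomes 1 to 12 in which every distance between neighbours was 160 to 210 bp. A summit is the point at which the signal of a nucleosome is highest. The members were thus selected on the measured WT distances. The selection gave 867 arrays with 7535 member nucleosomes, which is 0.540% of the 1395431 WT summits on these chromosomes. Values that follow from the selection, such as the regular spacing in WT itself, are given only as a description.

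The nucleosomes were mapped by MNase-seq, in which micrococcal nuclease digests the DNA between nucleosomes and the protected fragments are sequenced. Rice (*Oryza sativa*) seedlings aged 30 days were used, raised in long days of 14 h light (30 °C) and 10 h dark (28 °C). The 2 groups were wild-type plants (WT) and plants of the genotype *oschz1*, with 2 libraries each. The study describes the mutant as *oschz1-1*, a single CRISPR/Cas9 allele with a small deletion and a premature stop codon, so line and genotype cannot be told apart. The table holds 1 merged value per genotype and nucleosome. For this reason the replicate spread behind a difference is unknown, no test between the genotypes was made, and the depth of the libraries is unknown. The paper names cross-linked seedlings and then powdered leaf material as the source of the nuclei. Such material holds many cell types, so that a summit is an average position over them.

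A nucleosome is a stretch of DNA wrapped around a core of histones, and the DNA between neighbours is the linker. Where successive nucleosomes keep the same spacing they form a regular, or phased, array. Such arrays are known to form next to fixed barriers and through remodelling enzymes that set the spacing, and the sum of core and linker is the nucleosome repeat length. OsChz1 is a histone chaperone that binds the H2A-H2B dimer, a component of the nucleosome core, which is the background to asking whether nucleosomes hold their places without it. Neither the genes and sequences at the arrays nor their base composition were analysed here, and positions are given on the rice build MSU7.

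Most arrays were short. Of the 867 arrays, 512 (59.1%) had exactly 8 summits, 201 had 9 and 100 had 10. Only 22 arrays had 12 summits or more, and the longest had 18. The distance from the first to the last summit had a median of 1340 bp and ranged from 1180 to 2982 bp. Just outside the limit of the selection lay 1317 runs of exactly 7 summits and 3309 runs of 6, so that each further nucleosome in the run left fewer runs.

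The mean distance between neighbours within an array, taken as its repeat length, was 185.1 bp ± 5.74 (SD over 867 arrays). It ranged from 167.8 to 205.7 bp, and the middle 50% of arrays lay between 181.3 and 188.8 bp. This average lies near the middle of the distances that the selection allows, and its spread is bounded by them. The distances within an array varied around this average with a median SD of 15.7 bp. Of the 6668 distances inside arrays, 14.7% were shorter than 170 bp and 15.5% were longer than 200 bp, so both limits were well filled. Across all neighbouring WT summits the median distance was 200 bp, and 31.7% of 1395419 distances lay within the limits. The fullest class of 10 bp in that genome-wide distribution began at 180 bp in both genotypes. Most summits lie on a grid of the map, with 87.3% of the members on positions 10 bp apart, and offsets of less than 10 bp are therefore not resolved for them.

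**Figure D1:**
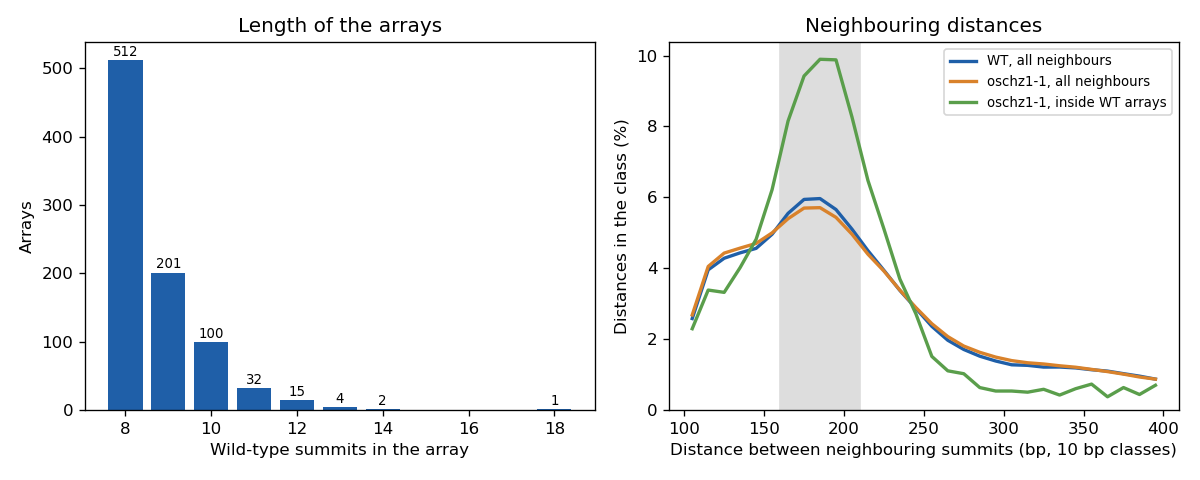
Left, number of arrays (y axis) by the number of WT summits in the array (x axis). Right, percent of neighbouring distances (y axis) in classes of 10 bp (x axis, bp). The lines are all WT neighbours, all *oschz1-1* neighbours and *oschz1-1* neighbours inside the WT arrays. The grey band marks 160 to 210 bp, which holds 50.7% of the last and 30.6% of all *oschz1-1* distances. Distances that leave the array and its short margin are not counted in the last.

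At both ends of an array the next distance was by definition outside the limits. Of these 1734 distances, 32.7% were shorter than 160 bp and 67.3% were longer than 210 bp. Just outside the limits lay 8.77% of them at 150 bp or more but below 160 bp, and 8.42% above 210 bp and up to 220 bp. A further 18.0% (312) were 320 to 420 bp, the sum of a pair of allowed distances. All WT distances outside the limits had similar shares, with 36.3% below 160 bp and 15.7% at 320 to 420 bp. In *oschz1-1* a summit was found within 30 bp of the middle of 51 of the 312 gaps of this length beside arrays (16.3%), against 21.3% of 149401 such gaps genome-wide.

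Arrays were found on every chromosome. Members made up between 0.446% of the WT summits on chromosome 3 and 0.649% on chromosome 7, and there were 1.98 to 2.79 arrays per Mb. Neighbouring arrays lay a median of 272580 bp apart, and 29 of 855 neighbouring pairs (3.39%) were within 10000 bp of each other. The densest window of 1 Mb was on chromosome 2, from 15000001 to 16000000, with 8 arrays. Of 379 such windows, 337 held at least 1 array.

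When the same selection was applied to the *oschz1-1* map it gave 658 arrays with 5654 members, 0.401% of 1409388 summits, against 867 arrays and 0.540% in WT. WT had more arrays on 11 of the 12 chromosomes, chromosome 8 having 60 in each map, and its share of members was the higher on all 12. The largest ratio was on chromosome 10, with 60 arrays in WT and 28 in *oschz1-1*. Parts of chromosomes 10 and 11 lack signal in the WT map, and without both chromosomes the counts were 736 and 577. The *oschz1-1* arrays had a repeat length of 184.4 bp ± 5.49 (SD over 658 arrays), and the longest had 14 summits. Distances of 160 to 210 bp were also somewhat less frequent in *oschz1-1* over the genome, at 30.6% against 31.7%. Whether these contrasts exceed the difference between libraries of 1 genotype cannot be told from merged maps.

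The question of phase was asked first summit by summit. The *oschz1-1* positions were not used to choose the WT arrays. A member was taken to keep its place where the nearest *oschz1-1* summit lay within 30 bp. This was so for 5153 of 7535 members, 68.4% (exact 95% binomial interval 67.3 to 69.4%), against a background of 51.8% over all WT summits. The interval covers the counting of summits only, and neighbouring summits are not independent. Another 1417 members (18.8%) had their nearest *oschz1-1* summit 31 to 73 bp away, and 965 (12.8%) had none within 73 bp, about the radius of a nucleosome. The median distance to the nearest *oschz1-1* summit was 20 bp for members and 30 bp for the other WT summits. Of the other WT summits, 22.2% had no *oschz1-1* summit within 73 bp. Nucleosomes of regular WT arrays thus had an *oschz1-1* summit close by more often than WT nucleosomes at large, by 16.7 percentage points. This difference was chosen for description after the data had been seen.

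As the selection used the map of 1 genotype only, the comparison was repeated with the genotypes exchanged. Of the members of *oschz1-1* arrays, 68.1% had a WT summit within 30 bp, against 51.2% of the other *oschz1-1* summits, a difference of 16.9 points. The shares without a summit of the other map within 73 bp were 12.7% and 22.9%. The values in both directions were close to each other, and the offsets of both kinds of members nearly overlie in the histogram of offsets.

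**Figure D2:**
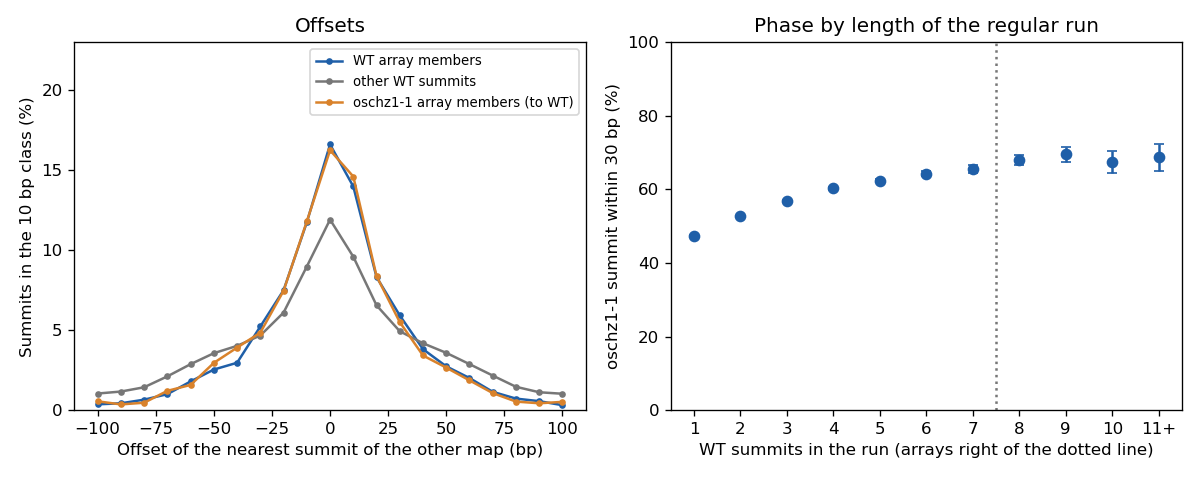
Left, percent of summits (y axis) by the offset of the nearest summit of the other map (x axis, bp, classes of 10 bp) for WT array members, other WT summits and *oschz1-1* array members. Right, percent of WT summits with an *oschz1-1* summit within 30 bp (y axis, exact 95% intervals of the counting) by the number of summits in the regular WT run (x axis), from 47.4% for isolated summits to 68.0% for runs of 8.

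The share of summits that kept their place was higher in longer runs up to 8 summits and had no step at that limit. It was 47.4% for WT summits with no neighbour at an allowed distance, 56.9% in runs of 3, 62.4% in runs of 5 and 65.5% in runs of 7. In runs of 8 it was 68.0%, in runs of 9 it was 69.5%, in runs of 10 it was 67.5% (64.5 to 70.4%), and in the 54 runs of 11 or more it was 68.9%, with no further increase past 8. WT occupancy, the height of the fragment signal at the summit, moved with this order. Its median was 15.9 for isolated summits and 18.7 in runs of 8. WT fuzziness, which is larger where fragments scatter more widely about their nucleosome, had medians of 54.0 and 51.0. Nucleosomes just beyond the ends of the arrays had a lower share. Of 8612 summits among the 5 nearest on each side, 53.4% had an *oschz1-1* summit within 30 bp, close to the background.

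Members in the interior of arrays had a nearby *oschz1-1* summit more often than members at the ends. At the ends, 62.9% of 1734 members had an *oschz1-1* summit within 30 bp (60.6 to 65.2%), and in the interior, 4 or more summits from either end when the end counts as 1, 71.8% of 2333 members did (69.9 to 73.6%). Summits in between, 2 and 3 from an end, had 68.2% and 69.6%. Median WT occupancy was 18.2 at the ends and 19.4 in the interior, and fuzziness was 51.7 and 50.1.

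Members were higher and sharper in WT than other nucleosomes, with 38.4% of them in the top quartile of WT occupancy and 41.3% in the lowest quartile of WT fuzziness. The difference in phase was therefore also read within quartiles. In the lowest quartile of WT occupancy 51.5% of members and 39.1% of other summits had an *oschz1-1* summit within 30 bp, and in the highest quartile the shares were 78.2% and 66.4%. The difference was between 11.8 and 15.2 points over the 4 quartiles of occupancy. Over the quartiles of fuzziness it was between 9.36 and 13.0 points, with 80.9% of members and 68.3% of others in the sharpest quartile. In every quartile members had the higher share, and in each the difference was smaller than the 16.7 points over all summits.

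**Figure D3:**
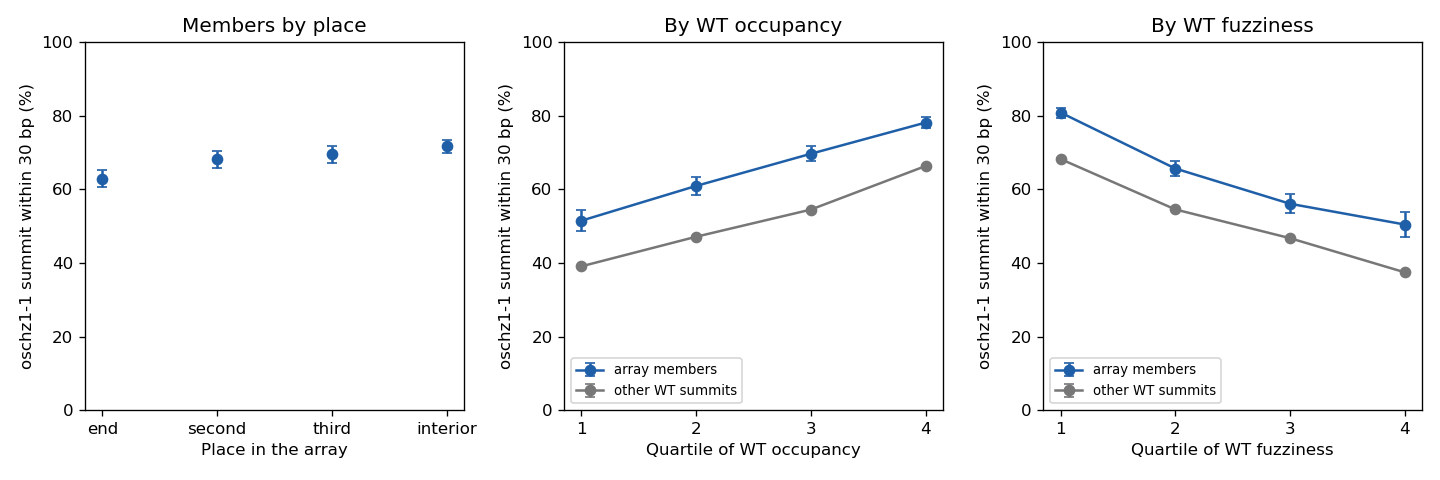
Percent of WT summits with an *oschz1-1* summit within 30 bp (y axes, exact 95% intervals of the counting), by place in the array (left) and for members and other WT summits in quartiles of WT occupancy (middle) and WT fuzziness (right; quartile 1 is lowest on both x axes). Interior members reach 71.8% and end members 62.9%, and members lie above the other summits in all quartiles.

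The shares also varied between kinds of array. They ranged from 63.3% on chromosome 1 to 71.8% on chromosome 12, and from 66.6% to 74.3% over classes of repeat length with no steady order. The least regular quartile of arrays, with an SD of the distances above 17.7 bp, had 62.7% (60.4 to 64.9%). The most regular quartile had 71.5% (69.4 to 73.6%), and those between had 69.4% and 69.7%.

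The mutant map also carried the periodicity of the arrays beyond the nearest summit. Counted in 10 bp classes around each member, *oschz1-1* summits were 8.39 times as frequent at 1 repeat length as midway between repeats. At 2, 3 and 4 repeat lengths the ratio was 5.76, 3.71 and 2.67. Around the other WT summits the first ratio was 2.18 and the ratio at 4 repeats was 1.09, so that the wave had almost gone after 4 nucleosomes. Neighbouring summits of a map were never less than 100 bp apart. An *oschz1-1* summit close to a member therefore empties the first trough, and the first ratio is not independent of the share within 30 bp. WT summits around *oschz1-1* array members gave ratios of 9.58, 6.16, 4.18 and 2.80, again similar with the genotypes exchanged.

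**Figure D4:**
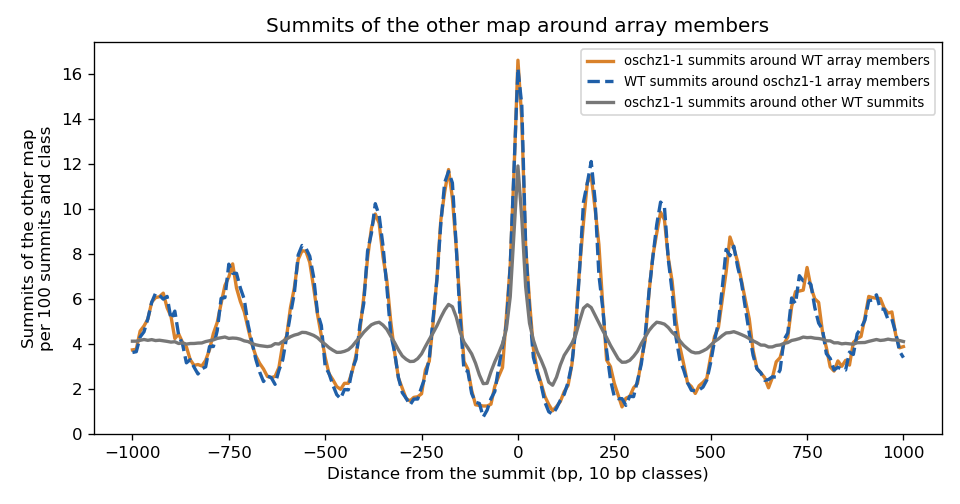
Number of summits of the other map per 100 summits and 10 bp class (y axis) by distance (x axis, bp) from WT array members, from *oschz1-1* array members and from other WT summits. The waves around both kinds of array members nearly coincide, with peak-to-trough ratios of 8.39 and 9.58 at the first repeat, and the wave around other WT summits has 2.18.

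By array, phase was kept in part. Every member had an *oschz1-1* summit within 30 bp in 62 arrays (7.15%), and all but at most 1 member did in 207 arrays (23.9%). In 203 arrays (23.4%) at most 50% of the members did, and there was no array in which none did. The median array had 70% of its members in place. For *oschz1-1* arrays read in the WT map, every member was in place in 6.99% and all but at most 1 in 24.0%. At most 50% of the members were in place in 23.6% of them, and the median was again 70%. An array seldom remained an array by the same criterion. In 22 of 867 (2.54%) the *oschz1-1* summits inside its span included a regular run of at least 8, and 22 of 658 *oschz1-1* arrays (3.34%) had such a run in WT. Runs of at least 4 regular *oschz1-1* summits were present in 47.2% of the WT arrays, and such runs of WT summits in 48.0% of the *oschz1-1* arrays. The 48 WT arrays that overlapped any *oschz1-1* array were 5.54% of the WT arrays and 7.29% of the *oschz1-1* arrays.

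The numbers of summits give the ways in which runs were broken. A total of 438 arrays (50.5%) had fewer *oschz1-1* than WT summits, 328 (37.8%) had the same number and 101 (11.6%) had more. In 584 arrays (67.4%) at least 1 member had no *oschz1-1* summit within 73 bp, and in 210 arrays (24.2%) at least 1 *oschz1-1* summit was additional. The 965 unmatched members outnumbered the 252 additional summits. *oschz1-1* arrays read in the WT map gave the same order, with 717 unmatched members and 169 additional WT summits. An additional summit had to lie inside the span and more than 73 bp from every member, which leaves little room between members. Unmatched members had no such limit. The order of these counts thus follows largely from the definitions and does not show a loss of summits. Of the 6144 *oschz1-1* distances inside WT arrays, 50.7% were 160 to 210 bp against 30.6% of all *oschz1-1* distances. Shorter ones were about as frequent as genome-wide (24.1% against 25.4%), and longer ones were fewer (25.2% against 44.0%). Inside arrays a distance was counted only where both of its summits lay within the array or a short margin around it. Long distances cross the edge of such a window more often and are then left out. The genome-wide shares have no such cut, so the shares compared here are not like measures.

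The repeat length could be read summit for summit in some arrays. In 213 arrays each WT summit had its own *oschz1-1* counterpart within 73 bp, and the median repeat length was 185 bp in WT and 185.7 bp in *oschz1-1*. The difference between them in an array had a median of 0 bp, with the middle 50% from -2.86 to 4.29 bp and extremes of -12.9 and 12.9 bp. These arrays were taken because their summits had counterparts close by, which bounds the difference, so its small size is a description of them and not a result about spacing in *oschz1-1*.

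No WT array met the criterion for a displacement as a block, that is, offsets that are large and alike. This was called where the mean offset was at least 50 bp and the resultant length, a measure of likeness from 0 to 1, was at least 0.9. None of the 867 arrays met both conditions (exact 95% upper limit 0.425%). With the genotypes exchanged, 1 of 658 *oschz1-1* arrays did. Each offset is taken to the nearest summit, so a larger shift, closer to a whole repeat, would read as a small or opposite offset. Members without a counterpart can also lower the resultant length. The criterion thus could not find every kind of block displacement. Few arrays reached a resultant length of 0.9, with 53 of the WT arrays (6.11%) and 39 of the *oschz1-1* arrays (5.93%). The mean offset of an array had a median of 0 bp and a range of -86.0 to 89.1 bp, and it lay within 10 bp of 0 in 44.5% of arrays. Of 6668 pairs of adjacent members, 5130 had both offsets within 73 bp, and only these were compared. They hardly moved together, with a Pearson r of 0.11 between their offsets. These pairs share the maps and overlap one another. Under the same limit, r was 0.14 over 287259 pairs at allowed distances outside arrays. Among the compared adjacent members that both moved, 54.2% moved in the same direction, against 54.9% outside arrays.

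The longest array was on chromosome 12, from 16525309 to 16528291, with 18 WT summits at distances of 160 to 190 bp and a repeat length of 175.4 bp. The offsets of the nearest *oschz1-1* summits along its first 11 members were -8, 10, 5, 20, 12, 10, -10, 10, -25, 0 and 10 bp. Along the last 7 they were -70, -25, -50, -60, 115, -60 and -50 bp. The left part of the array was thus in place and the right part mostly had *oschz1-1* summits at lower coordinates, with 1 member lacking a counterpart within 73 bp. WT occupancy over its members was lowest at 13.5, with a median of 21.5 and a highest value of 30.9. In *oschz1-1* these were 11.4, 16.5 and 35.4, so that the ranges overlapped. Fuzziness was higher in *oschz1-1* at 17 of its 18 nucleosomes, with medians of 46.5 and 54.4.

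The other 4 of the 5 longest arrays had 13 or 14 summits. On chromosome 6, from 3034941 to 3037381, 8 of 14 members were within 30 bp, and 3 had no *oschz1-1* summit within 73 bp. On chromosome 1, from 12836821 to 12838971, 9 of 13 members were within 30 bp, with offsets of 48, -115, -160 and -65 bp at members 2, 3, 5 and 8. On chromosome 11, from 7728541 to 7730776, 10 of 13 members were within 30 bp and none lacked a counterpart, the others having offsets of 50, 65 and 40 bp. The remaining array, on chromosome 3 from 12502821 to 12505221, had 7 of 14 members within 30 bp and was also among the least in phase of the arrays with at least 12 summits.

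Among these 22 arrays, the most in phase lay on chromosome 8, from 26289831 to 26291891. There 11 of 12 members were within 30 bp, and 1 additional *oschz1-1* summit stood between members 3 and 4. On chromosome 9, from 2315656 to 2317891, 11 of 13 members were within 30 bp and the others had offsets of 170 and 70 bp. The least in phase, on chromosome 9 from 13307591 to 13309771, had 5 of 13 within 30 bp. Its offsets were 20, 35, 40, -120, -20, 80, 15, 40, 30, 35, 12, 140 and -70 bp, so most *oschz1-1* summits lay at higher coordinates than the WT summits.

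Arrays that an *oschz1-1* run matched from the first to the last summit numbered 14 (1.61%), and 3 of these were picked after their values had been seen. On chromosome 7, from 618671 to 620371, all 10 members were within 20 bp of an *oschz1-1* summit, and the repeat length was 188.9 bp in WT and 191.1 bp in *oschz1-1*. On chromosome 10, from 16649751 to 16651271, all 9 members were within 22 bp, and 3 had an offset of 0 bp. On chromosome 5, from 18041991 to 18043661, all distances were within the limits in both maps, but members 6 to 8 had offsets of -60, -60 and -50 bp with the rest within 20 bp. Regular spacing and kept phase were therefore not the same property in this array.

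**Figure D5:**
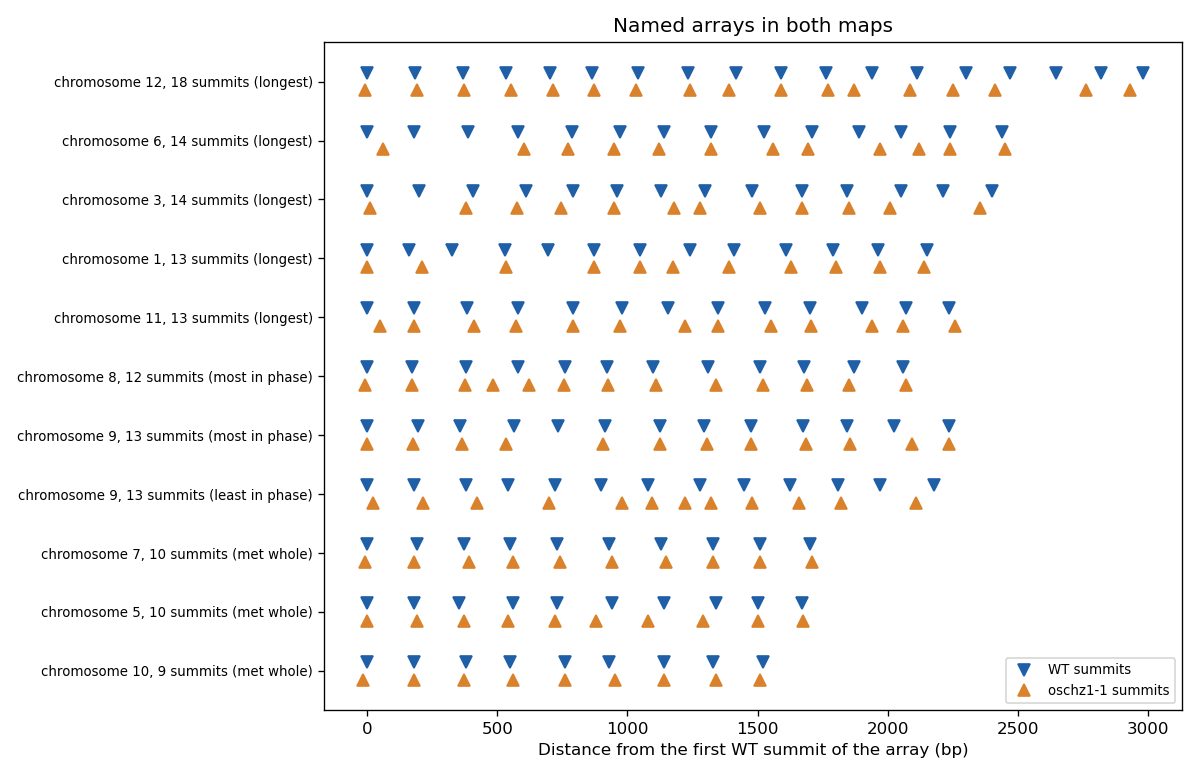
Positions of WT summits (downward triangles) and *oschz1-1* summits (upward triangles) in the named arrays, by distance from the first WT summit (x axis, bp), with one line per array (y axis). In the longest array the first 11 members have *oschz1-1* summits within 25 bp and most of the last 7 have them 50 to 70 bp to the left, whereas the 10 summits of the chromosome 7 array are matched throughout.

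Occupancy was compared at the same members, as log2 of *oschz1-1* over WT with 1 added to both values. Its median was -0.08 for members and -0.13 for the other WT summits. From the lowest to the highest quartile of WT occupancy, the median was 0.200, 0.072, -0.075 and -0.243 for members. For the other WT summits it was 0.103, -0.047, -0.170 and -0.328, lower than for members in each quartile. A log2 ratio of at least 1 was found at 79 members (1.05%, background 0.918%), and one of -1 or less at 481 members (6.38%, background 9.42%). Members had a median occupancy of 18.8 in WT against 18.1 in *oschz1-1*, while the other WT summits had 16.5 against 15.6. The sign was the opposite when the members of *oschz1-1* arrays were taken, with a median of 0.08 against 0.12 at the other *oschz1-1* summits. A log2 ratio of at least 1 was found at 5.82% of the former and 9.63% of the latter. No array had a median ratio past 1 in either direction, the range being -0.73 to 0.57. All members were lower in *oschz1-1* in 11 arrays, and all were higher in none. By summit, occupancy was lower in *oschz1-1* at 56.4% of members and at 59.5% of the other WT summits. How many such arrays these shares alone would give was not tested.

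Fuzziness was higher in *oschz1-1* at 63.2% of members, by a median of 1.73, and at 56.6% of the other WT summits, by 0.895. At like WT fuzziness this contrast was smaller and did not keep its direction. From the sharpest to the fuzziest quartile in WT, the median difference was 3.72, 1.81, 0.27 and -1.78 for members. For the other WT summits it was 3.69, 2.02, 0.16 and -2.13. At like WT occupancy the contrast remained. From the lowest to the highest quartile of occupancy the median was 0.55, 0.75, 1.81 and 2.47 for members. For the other WT summits it was -0.14, 0.50, 1.08 and 1.89, lower in each. With the genotypes exchanged, the median difference of *oschz1-1* minus WT was -1.102 for members of *oschz1-1* arrays and -0.769 for the other *oschz1-1* summits.

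The values also differed between classes of members defined by the *oschz1-1* summits. This grouping uses the *oschz1-1* map itself, in which a summit is a maximum of the signal, so the *oschz1-1* values of the classes are a description. Members with an *oschz1-1* summit within 30 bp had median occupancies of 19.8 in WT and 19.7 in *oschz1-1*, and those 31 to 73 bp from one had 18.1 and 17.4. Those with none within 73 bp were already lower in WT, at 14.9, and had 7.87 in *oschz1-1*, with fuzziness of 52.7 and 58.4. The other WT summits with none within 73 bp had similar values, with occupancies of 14.2 and 7.85 and fuzziness of 54.5 and 58.9.

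The sharpest array in WT, also picked after its values had been seen, was on chromosome 12 from 13111011 to 13112301. Fuzziness over its 8 members ranged from 31.1 to 45.3 around a median of 32.8 in WT and from 33.1 to 52.5 around 45.6 in *oschz1-1*, higher at each of the 8. All 8 members had an *oschz1-1* summit within 30 bp. Its occupancy had medians of 16.7 and 17.5. The array was picked for its low WT fuzziness, so the higher value in the other map is a description of this array only.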

How the data were processed

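MNase-seq of 30-day-old seedlings was analysed, with 2 libraries of WT and 2 of *oschz1-1*. The authors aligned read pairs to rice build MSU7 by Bowtie2 2.3.4.1, removed duplicates and reads of low mapping quality with SAMtools, and positioned nucleosomes with DANPOS. Its options are not given in the sources used here. One table of 17 columns was used, with 1 merged value per genotype. Occupancy is a signal on the scale deposited by the authors, and the paper does not describe how it was scaled between the genotypes. Its median log2 ratio over all rows of chromosomes 1 to 12 was 0.00079. Fuzziness and the point value (occupancy where the maps differ most) are scores deposited by the authors. The control columns were taken as WT and the treated columns as *oschz1-1*. Of the columns of values, 8 were used and 0 were left unmapped. The p-value and FDR columns hold the authors' own comparison and were not used.

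Arrays were runs of at least 8 summits 160 to 210 bp apart. Phase was the offset of the nearest *oschz1-1* summit, with a limit of 30 bp. The resultant length is that of the mean vector of the offsets, each taken as an angle of the array's repeat. Log2 ratios had a pseudocount of 1. Intervals are exact 95% binomial ones and cover counting only. Named arrays were the 5 with most summits (ties by the smaller SD of distances), and, among those of at least 12 summits, the 2 with the largest and the 2 with the smallest share of members within 30 bp. Arrays displaced together would also have been named, but there were none. The members and the lists were chosen with earlier results of these data known. Run lengths, summits beside the arrays and the exchange of genotypes were compared after the data had been seen. The search was tested on simulated data, where it found 200 of 200 arrays put in and 0 others. The simulated stretches between arrays held no distance within the limits, so other arrays could not arise there. The result checks the code and not how often such runs arise by chance in the real map. Python 3.11.15, numpy 2.4.6, pandas 2.3.3, scipy 1.17.1 and matplotlib 3.10.9 were used.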

Additional observations from a re-analysis of the deposited data

How the results depend on the processing

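The alternatives used runs of at least 6 or 12 summits, distances of 150 to 220 bp or 170 to 200 bp, only arrays with all occupancies above the lower quartile (13.3), and the map without chromosomes 10 and 11. In that order without the last, the WT arrays numbered 5493, 22, 3301, 91 and 222, and the *oschz1-1* arrays 4404, 10, 2512, 66 and 151, always fewer than in WT. The members were 2.62%, 0.0199%, 2.12%, 0.0553% and 0.138% of the WT summits. The share of members within 30 bp was 65.4% with 6 summits, 64.0% with 150 to 220 bp, 70.7% with 170 to 200 bp and 71.2% with high occupancy. Limits of 20 and 50 bp gave 56.7% and 81.0%. The difference from other WT summits, which like the *oschz1-1* arrays was added after the data had been seen, was 14.0, 12.5, 18.9 and 19.4 points under those 4 selections and 14.9 and 13.6 points at 20 and 50 bp. Arrays with every member in place were 9.96% with 6 summits, 0% with 12 and 4.24% with 150 to 220 bp, and 1.38% and 19.8% at limits of 20 and 50 bp. Arrays kept as arrays were 6.77%, 0% and 5.85% under these selections and 0% with 170 to 200 bp.

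The log2 ratio of occupancy turned positive with 12 summits (0.0053, computed from 22 arrays) and with the point value (0.62), and it was -0.12 with high occupancy and -0.067 with a pseudocount of 5. The point value is taken where the maps differ most and is not listed at every member. Its interval had no width (both limits 0.6198), as for a value that rests on hardly any member. The sign under this alternative is therefore not informative. The fuzziness difference was 1.505 with 12 summits, 1.45 with 150 to 220 bp and 1.89 with high occupancy. The causes of these shifts were not tested. With the *oschz1-1* summit of the same row, the phase values were identical to the main ones. This alternative was thus no separate check, although its values are counted below as unmoved. Without chromosomes 10 and 11, no value moved beyond its interval or, for counts of arrays, beyond 1.5 times. In all, 24 of 67 alternative values stayed within these limits, 41 moved and 2 changed sign, the point value being among the latter.

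No paired analysis was possible because each genotype has 1 merged value, which also means that leaving out a replicate was not possible. The alternatives on genes and base composition were not run. Depth per library is unknown, so that missing summits and low coverage cannot be told apart.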
